A study of Homo sapiens with 9 samples.

Results

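The transcript of QKI itself carried 15 peaks of QKI-5 binding. They were the plus-strand peaks of the deposited HITS-CLIP peak list whose centre lay between the annotated start and end of QKI, and they made up 15 of 24037 peaks in all and 15 of 11925 on the plus strand. QKI (ENSG00000112531) spans 164593 nt of the plus strand at chr6:163835032-163999624 (hg19, GENCODE release 44 lifted to GRCh37). HITS-CLIP crosslinks protein to RNA in living cells with UV light, immunoprecipitates the protein and sequences the short RNA fragments that come with it.

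The cells were mesHMLE, a mesenchymal line derived from HMLE, which are immortalised human mammary epithelial cells (the labels give the cell type as breast cancer). They had gone through epithelial-mesenchymal transition (EMT) under 2.5 ng/ml TGF-β1 for 14 days or more and were then kept in the same medium without further TGF-β1. All cells were irradiated with 600 mJ/cm2. There were 7 libraries from immunoprecipitation with an antibody specific to QKI-5, of which 3 came from the gel range of the QKI monomer, 3 from that of the dimer, and 1 from the dimer range with another reverse transcriptase (SSIV). The other 2 libraries were size-matched input, which is lysate taken through the same gel without immunoprecipitation. The labels call the replicates technical. Reads were pooled before peaks were called, so each peak has 1 height with no spread between libraries, the depth of each library is unknown, and no test between libraries could be made. Each interval is a 95% Wilson interval, which takes in counting error alone. A peak needs both the transcript and the binding, and peak heights were not scaled to the level of the transcript.

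QKI is a STAR-family protein with a KH domain that binds RNA at the sequence ACUAAC or ACUAAU, often with a shorter UAAC or UAAU element nearby. Alternative 3′ ends of the gene give proteins that share the RNA-binding part and differ in their last residues and 3′UTRs. QKI-5 carries a nuclear localisation signal and regulates splicing, while QKI-6 and QKI-7 are found more in the cytoplasm, where QKI proteins act on mRNA stability and translation. Control of QKI transcripts by QKI proteins has been described. The study also reported that miR-200c and miR-375, microRNAs of epithelial cells, directly target the QKI-5 3′UTR, from luciferase reporters with intact and mutated sites.

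The sequences that bear on where QKI-5 met its own transcript are shown first, in the letters of the genome (T for U). Those of the 3′ ends are windows of at most 30 nt, with ACTAAC or ACTAAT (the QKI motif), GAACAAA (the complement of bases 2 to 7 of miR-375, followed by an A) and AATAAA (the canonical poly(A) signal) in capitals.
Stop codon of QKI-5, with ACTAAC over the stop codon TAA and no peak, chr6:163991726-163991755: ccgccaccggcaACTAACctatgaccttct
Annotated end of the transcript QKI-204, with AATAAA near its start, ACTAAC at its end and no peak, chr6:163994804-163994833: tAATAAAtgttataataccaacctACTAAC
ACTAAC site under peak 9, chr6:163994909-163994938: ttgagttactggACTAACcctgaagaacgt
miR-375 match under peak 11, chr6:163995071-163995099: agtagagatggGAACAAAgtagcctttgt
ACTAAT site under peak 15, chr6:163997317-163997346: tgtttctgctgcACTAATtgccagggggtg
Peaks are numbered 1 to 15 along the gene from its 5′ end. For the tallest peak, and for both peaks of the QKI-7 3′ end, none of which held a QKI motif, the base at the summit is in capitals.
Summit of peak 11, chr6:163995047-163995076: cggggcgggtgtgggTgtaggtgcagtaga
Summit of peak 7, chr6:163986292-163986321: gcatgctccttttccCagaactcctctctg
Summit of peak 8, chr6:163986377-163986406: tggggctcttagccaCcagctgctgttcca

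Peaks were denser past the last exon that all 3 isoforms share than before its end. Of the 15 peaks, 9 lay in the 14873 nt after that exon (6.05 per 10 kb) and 6 in the 149720 nt up to its end (0.401 per 10 kb). All 9 were in sequence annotated as 3′UTR. That is 60.0% of the QKI peaks (interval 35.7 to 80.2%), beside 7.81% of the nuclear peaks of the whole list. The interval takes each peak as separate. However, 6 of the 9 fell within 621 nt, and peaks 7 and 8 were 2 nt apart, so it overstates how well the share is known. Classes were given on the strand of the peak. The 60.0% depends on the annotation. Of the 9, 7 lay in the annotated last exon of QKI-5. The study mapped a shorter 3′UTR for QKI-5, and whether these peaks lie in QKI-5 mRNA was not tested. The other 2 lay in the 3′ end used by QKI-7 alone, within intron 6 of QKI-5. With QKI-5 alone, 53.3% of the QKI peaks were intronic. In the main classes, the 6 peaks up to the end of the last shared exon were intronic, 40.0% (interval 19.8 to 64.3%) beside 68.5% of all nuclear peaks. Of the QKI peaks at or above the median height of all nuclear peaks, 16.7% (1 of 6) were intronic and 5 lay after the last shared exon. The intronic share over all nuclear peaks of such height was not computed, and the 68.5% is over peaks of every height. Merging peaks whose centres lay within 100 nt also left 5 there, of 11 in all. No peak had its centre in the QKI-5 exons before the last, which sum to 1485 nt and hold nearly all of the coding sequence, and none lay on the minus strand across the gene.

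**Figure D1:**
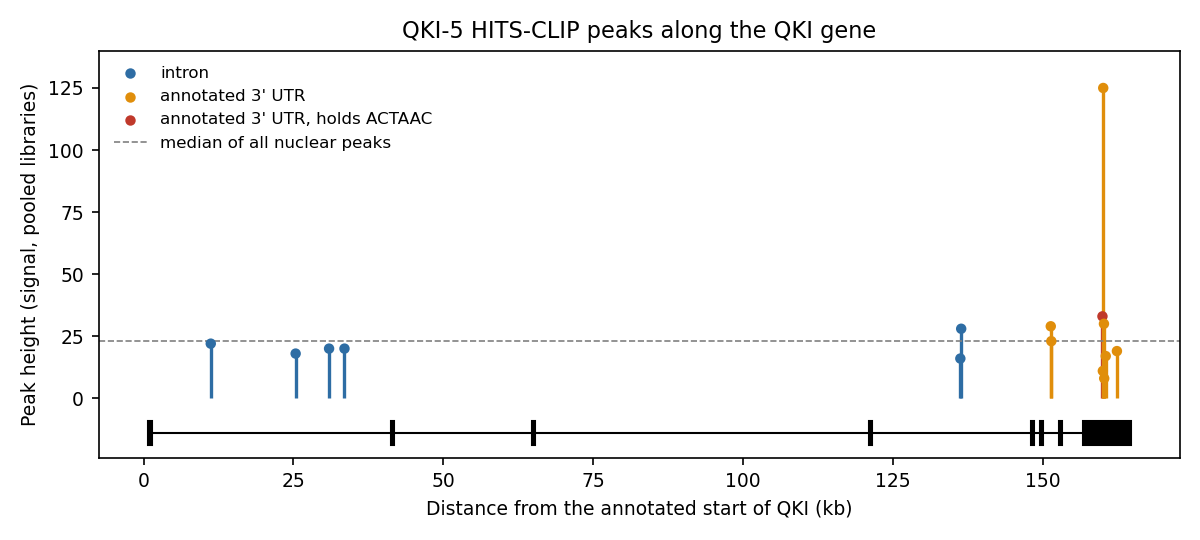
Height of the 15 QKI peaks (signal of the pooled libraries, vertical axis) against distance from the annotated gene start in kb (horizontal axis). Exons of QKI-5 are the black boxes, with short exons widened to be visible, and the dashed line is the median height of all nuclear peaks, 23. The intronic peaks sit in intron 1 and intron 4 at heights of 16 to 28, and the tallest peak, at 125, sits in the last exon.

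The isoforms were assigned to annotated transcripts with the study's isoform-specific qPCR primers. The QKI-5 reverse primer (gcatatcgtgccttcgaacttt) lay at chr6:163987767-163987788 in the 75 nt seventh exon of transcript QKI-203. That of QKI-6 (tagcctttcgttgggaaagc) lay at chr6:163986983-163987002 at the start of the last exon of QKI-207, and that of QKI-7 (caggcatgactggcatttca) at chr6:163985706-163985725 at the start of the last exon of QKI-201. These 3 transcripts share 6 exons and then part. The last exons of QKI-6 and QKI-7 end at the same base, so that QKI-7 differs in 1279 nt of its own at the start of its last exon, while QKI-5 uses the 75 nt at chr6:163987753-163987827, inside that shared last exon, as its seventh exon and runs on to a last exon of 7899 nt further on. The QKI-5 reverse primer site is therefore also present in the QKI-6 and QKI-7 mRNAs. Its forward primer lies in the last shared exon, which QKI-5 joins directly to these 75 nt. In QKI-6 and QKI-7 more sequence lies between the primers, so the product from them would be longer.

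The 7 peaks of the QKI-5 last exon all lay in its downstream part. Inside this exon the annotation ends further transcripts. QKI-217, QKI-202, QKI-210 and QKI-212 end 31, 37, 391 and 742 nt after the QKI-5 stop codon. The last of these ends, that of QKI-204, is at chr6:163994832, 3090 nt after the stop codon. QKI-204 is annotated as a target of nonsense-mediated decay with the weakest level of transcript support, and whether the cells use its end was not tested here. The 3107 nt of the exon up to that end held 0 peaks, and the 4792 nt past it held all 7 (14.6 per 10 kb). The first of them, peak 9, began 56 nt after the QKI-204 end, and 6 of the 7 (peaks 9 to 14) fell within 621 nt, between 56 and 676 nt after it.

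Peak 9 (chr6:163994888-163994968, 81 nt wide, height 33) was the only QKI peak with ACTAAC, and its summit lay 8 nt downstream of the motif's centre. The same motif was in 8.36% of all 3′UTR peaks, beside 1 of 9 in QKI. After a gap of 5 nt followed peak 10 (chr6:163994974-163995016, height 11). Peak 11 (chr6:163995027-163995089, 63 nt) began 10 nt further on and had a height of 125, the tallest of the gene. Of all nuclear peaks, 97.3% were lower than peak 11, which ranked 641st of 24019. It held neither the QKI motif nor its short TAAC or TAAT element, 47.6% of its bases were G, and its summit was 138 nt downstream of the ACTAAC of peak 9. Peak 12 (chr6:163995148-163995211, height 30) began with the last bases of an ACTAAT at chr6:163995144-163995149, and the site of the study's reverse transcription primer 6 (gaaggaaaaataaggtgtgg, chr6:163995151-163995170) lay inside it. Peak 13 (chr6:163995218-163995224) was 7 nt wide with a height of 8, and 0.699% of nuclear peaks were lower. Peak 14 (chr6:163995443-163995508) had a height of 17.

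Peak 15 (chr6:163997319-163997362, height 19) stood apart, 1810 nt past peak 14, and held ACTAAT. The heights of the 7 peaks thus ran from 8 to 125 with a median of 19, and 3 of them (peaks 9, 11 and 12) were above the nuclear median of 23. The gaps between peaks 9 and 13 were 5 to 58 nt, and whether these are separate binding events was not tested. All 7 lie past the stretch of the QKI-5 3′UTR that the study's cloning primers delimit, which ends at chr6:163994450, and they are in this 3′UTR only by the annotation. The study mapped the QKI 3′UTRs by RNA sequencing and RT-PCR, mesHMLE among the cells, and gave that of QKI-5 a length of 2.3 kb. The first of the 7 peaks begins 3146 nt after the annotated stop codon. From the peak list alone, QKI-5 mRNA with the annotated long 3′UTR and RNA that runs on past an earlier end cannot be told apart.

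**Figure D2:**
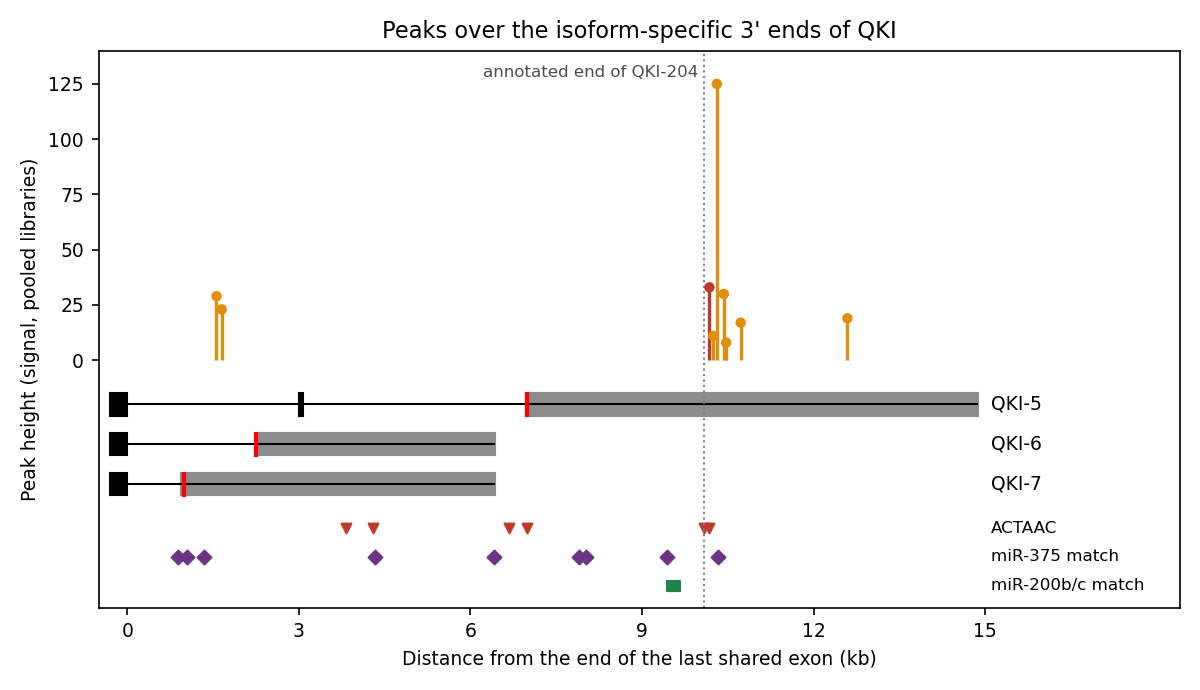
Peak height (signal of the pooled libraries, vertical axis) against distance from the end of the last shared exon in kb (horizontal axis), with the isoforms drawn below (grey, last exon; black, other exons; red bar, stop codon). Triangles mark ACTAAC, diamonds the 9 miR-375 matches and squares the 2 miR-200b/c matches; orange stems are 3′UTR peaks and the red stem is the peak with ACTAAC. No peak falls on the QKI-6 last exon or between the QKI-5 stop codon and the dotted line at the QKI-204 end, and 7 fall after that line.

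The peaks of the QKI-5 last exon followed the last of the transcript ends annotated inside it, and no peak lay between the earlier ends and that one. Among 3′UTR peaks of QKI, 6 of 9 had their centre within 1000 nt after the end of an annotated transcript of a protein-coding gene, nonsense-mediated decay transcripts included, whose 3′UTR was at least 100 nt long, beside 24.2% of all 3′UTR peaks. All 6 refer to the same end, that of QKI-204, and are neighbours within 621 nt, so that they are not 6 separate cases. An AATAAA lay 27 nt before the QKI-204 end, and another 2 lay between this end and peak 9, at chr6:163994876-163994881 and, over the edge of peak 9, at chr6:163994884-163994889. AATAAA was present in the 100 nt before 4 of the 15 QKI peaks (peaks 3, 5, 9 and 10), beside 5.09% of nuclear peaks of every class. Peaks 3 and 5 are intronic, with centres 10272 and 11780 nt from the nearest annotated exon edge, so they do not bear on a transcript end. The windows of peaks 9 and 10 overlap, and both take in AATAAA sites of the same stretch.

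The 3′ end used by QKI-7 alone held 2 peaks in 1279 nt (15.6 per 10 kb). Peak 7 (chr6:163986266-163986356, 91 nt, height 29) lay 524 to 614 nt after the QKI-7 stop codon, and peak 8 (chr6:163986359-163986446, 88 nt, height 23) lay 617 to 704 nt after it. The gap between them was 2 nt, and merging peaks whose centres lay within 100 nt made them 1. Neither held ACTAAC or ACTAAT, and the nearest ACTAAC was over 2 kb away, 2263 nt from the summit of peak 7 and 2178 nt from that of peak 8. The same bases are intron 6 of QKI-5, so that binding to QKI-7 mRNA and to QKI-5 or QKI-6 pre-mRNA cannot be told apart here. The 4200 nt last exon of QKI-6, which is also the rest of the QKI-7 3′UTR, held 0 peaks, although it holds 2 ACTAAC sites.

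The 6 intronic peaks were in intron 1 (4 peaks in 39943 nt) and intron 4 (2 peaks in 26856 nt). Introns 2, 3, 5 and 7 held 0 peaks, and 102623 nt without a peak separated peak 4 from peak 5. The intronic peaks had heights of 22, 18, 20 and 20 in intron 1 and of 16 and 28 in intron 4. Only peak 6 (chr6:163971341-163971408) was above the nuclear median.

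These peaks were far from exons. The centres of 5 of the 6 lay over 5000 nt from the nearest edge of any annotated exon on the strand, beside 32.5% of all intronic peaks, and the distances ran from 1625 nt for peak 1 to 11780 nt for peak 5. The median over all intronic peaks was 2342 nt. That share and median take in introns of every length, while introns 1 and 4 of QKI are 39943 and 26856 nt long. The exception, peak 1, is near an exon of another transcript of the gene and was 9882 nt from the nearest exon of QKI-5.

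The intronic peaks differed in sequence. Of the 6, 5 are shown whole because each has a different composition, with ACTAAT and the short elements TAAC or TAAT in capitals.
Peak 1, chr6:163846200-163846297: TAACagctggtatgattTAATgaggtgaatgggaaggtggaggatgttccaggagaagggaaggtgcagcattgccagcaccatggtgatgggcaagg
Peak 2, chr6:163860380-163860421: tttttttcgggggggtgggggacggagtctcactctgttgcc
Peak 3, chr6:163865956-163865995: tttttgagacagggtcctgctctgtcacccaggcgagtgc
Peak 4, chr6:163868518-163868570: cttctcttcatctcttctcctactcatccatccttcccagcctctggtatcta
Peak 6, chr6:163971341-163971408: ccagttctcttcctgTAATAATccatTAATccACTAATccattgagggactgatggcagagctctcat
Peak 6 held ACTAAT with TAAT elements upstream, the nearest 2 bases before it, and was the 1 QKI peak of 15 with ACTAAC or ACTAAT and a TAAC or TAAT within 1 to 20 nt, beside 4.51% of nuclear peaks. Peak 1 held TAAC and TAAT without the full motif, and 38.8% of its bases were G. Peak 4 was a run of pyrimidines, with 39.6% T and 41.5% C.

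Peaks 2 and 3 were made of sequence that recurs in other peaks. Peak 3 shared at least one 15 nt word with 220 other nuclear peaks and peak 2 with 96, while peak 4 did so with 12 and no other QKI peak with more than 2. Over the whole list, 5.71% of nuclear peaks shared a word with at least 99 others, and 1 of the 15 QKI peaks did. The authors kept alignments with a mapping quality of 10 or more, and whether the reads of peaks 2 and 3 came from this gene was not tested.

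A minority of the peaks held the QKI motif, here and over the whole list. ACTAAC was found in 1 of 15 (6.67%, interval 1.19 to 29.8%), beside 10.1% of all nuclear peaks. ACTAAC or ACTAAT was found in 3 of 15 (20.0%, interval 7.05 to 45.2%; peaks 6, 9 and 15), beside 13.7%, and ACTAAT in 2 of 15 beside 4.23%. TAAC or TAAT was found in 6 of 15, beside 37.5%. None of the 6 intronic peaks held ACTAAC (0 of 6, which allows up to 39.0%), beside 10.8% of all intronic peaks. Of the same-length windows 500 nt to either side of the 15 peaks, 0 of 15 upstream and 0 of 15 downstream held ACTAAC. The gene has 1.46 sites per 10 kb, so windows this short would rarely hold one, and some of them lie over neighbouring peaks. These counts therefore give no background for the peaks. Motifs were read on the strand of the transcript, and TAAC and TAAT are part of ACTAAC and ACTAAT. Both intervals span the share of the whole list.

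Of the ACTAAC sites of the gene, a share near that of other genes lay under a peak. The gene holds 24 on its strand (1.46 per 10 kb), and 1 of them, that of peak 9, lay under a peak (4.17%, interval 0.739 to 20.2%). Over all protein-coding genes with a peak, 3.87% of 61825 sites did. Introns 2 and 3 hold 5 and 7 sites and no peak, and the 4 sites of intron 1 lay outside its 4 peaks. Of the 52 ACTAAT sites, 1 in intron 4 and 1 in the QKI-5 last exon lay under peaks.

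After the last shared exon there are 6 ACTAAC sites. One of them is formed by the end of the QKI-5 reading frame itself, since it covers the stop codon at chr6:163991740-163991742, and it was 3145 nt from the nearest peak. Another, at chr6:163994828-163994833, runs over the end of QKI-204 and stopped 55 nt short of peak 9. The site under peak 9, at chr6:163994921-163994926, is 3179 nt after the QKI-5 stop codon and so follows the QKI-204 end by 89 nt. The remaining 3 lay at least 2121 nt from any peak.

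The matches to the microRNAs of this 3′UTR were set against the peaks. The mature sequences (RefSeq, GRCh38.p14) are shown with the seed, bases 2 to 8, in capitals; miR-200b and miR-200c share theirs.
hsa-miR-200b-3p: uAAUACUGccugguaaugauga
hsa-miR-200c-3p: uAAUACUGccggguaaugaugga
hsa-miR-375-3p: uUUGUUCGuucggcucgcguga
The miR-200b/c 8mer CAGTATTA occurred at 2 places after the last shared exon, at chr6:163994266-163994273 and chr6:163994334-163994341, and both were upstream of the peaks in the QKI-5 last exon, at 615 and 547 nt from peak 9. It was in 0 of 15 QKI peaks and in 0.0541% of nuclear peaks. The miR-375 match GAACAAA occurred 9 times after the last shared exon. One of these, at chr6:163995082-163995088, lay under the tallest peak, 11, and 3340 nt after the stop codon. GAACAAA was thus in 1 of 15 QKI peaks, beside 0.287% of nuclear peaks, while the other 8 matches lay 168 to 3716 nt from a peak. The stretch that the study's cloning primers delimit in the QKI-5 3′UTR, chr6:163992179-163994450, takes in both miR-200b/c matches and 3 of the miR-375 matches and ended before the peaks. It held 0 peaks and 0 ACTAAC sites in 2272 nt. The luciferase reporters of the study carried this stretch or parts of it, and so not the miR-375 match under peak 11. Of the siRNAs to QKI-5, number 1 (cugguaaucgccuuugcuu) matched at chr6:163991814-163991832 and number 2 (cuauuaacccacagcauua) at chr6:163994782-163994800, both in the annotated QKI-5 3′UTR upstream of its peaks. The site of number 2 lies past the cloned stretch.

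By height most QKI peaks lay near the middle of the list, with peak 11 far above the others. Their median was 20 (range 8 to 125), beside a median of 23 over all nuclear peaks with quartiles of 18 and 33. Of the 15, 6 were at or above the nuclear median, beside 53.4% of nuclear peaks. These were peaks 6, 7, 8, 9, 11 and 12, and only peaks 9 and 11 reached the upper quartile. Widths ran from 7 to 98 nt with a median of 64, beside 61 nt. Of the 15 centres, 10 had another within 1000 nt, beside 62.6% of nuclear peaks.

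**Figure D3:**
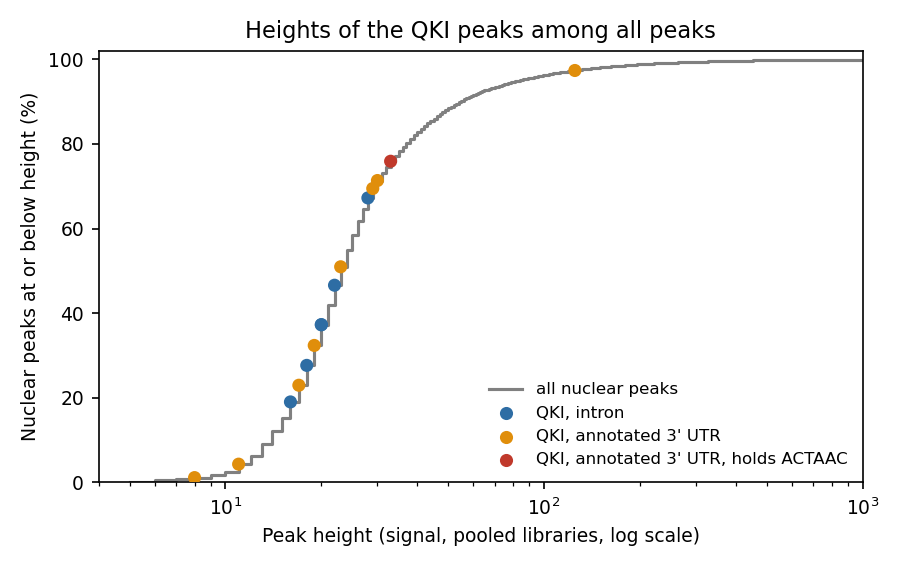
Share of nuclear peaks at or below a given height (percent, vertical axis) against height on a log axis (signal of the pooled libraries, cut at 1000), with the 15 QKI peaks as points coloured as in the gene map. Points of equal height lie on each other. Most points sit near the middle of the curve, with 1 point at 125 near its top.

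In number of peaks QKI stood high among genes. Of 20149 protein-coding genes, 23.6% had at least 1 peak on their strand. Among these 4748 genes QKI ranked 279th by number, with 6.7% holding at least as many, and the median was 2. QKI is long, and among the 1252 genes of 100 to 250 kb with a peak the median was 3. Per 10 kb of gene QKI had 0.911 peaks, beside a median of 0.374, and 23.4% of the genes had at least as many. By the tallest peak 5.75% of the genes equalled or passed the 125 of QKI, and the median was 29.

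**Figure D4:**
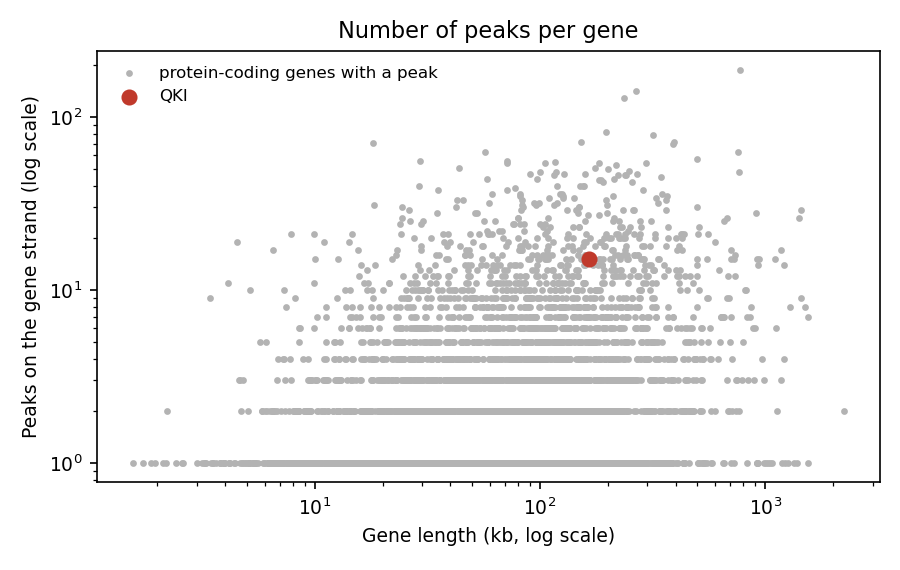
Number of peaks on the gene's strand (log axis) against gene length in kb (log axis) for the 4748 protein-coding genes with at least 1 peak, with QKI in red. QKI, with 15 peaks in 165 kb, sits above most genes of its length and below the highest.

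The genes whose peaks were most like those of QKI were looked for among the 669 protein-coding genes with 0.5 to 2 times as many peaks, by the distance over the shares of peaks in introns, in 3′UTRs and with ACTAAC and the log10 median height. The nearest was ATF7, a transcription factor gene, with 9 peaks, of which 33.3% were intronic, 66.7% in 3′UTRs and 11.1% with ACTAAC, at a median height of 23 (distance 0.121). ATF7-NPFF, a readthrough of the same locus, had the same values. CAPZB, which encodes an actin capping protein, followed with 16 peaks, 37.5% in introns, 50.0% in 3′UTRs and 12.5% with ACTAAC (distance 0.133).

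Among relatives of QKI, 2 of 4 genes had a peak, beside 23.6% of all protein-coding genes. SF1, the branch point binding protein, whose own site resembles that of QKI, had 19 peaks in a short gene (13.4 per 10 kb), the tallest at 310. KHDRBS1, which encodes the STAR protein SAM68, had 1, and KHDRBS2 and KHDRBS3 had 0. Among 10 genes of splicing regulators known in EMT or for control of their own splicing, 7 had a peak, beside the same 23.6%, with a median of 6.5 over the 10. MBNL1 had 46, CELF1 24, RBFOX2 15, as QKI did, MBNL2 8, PTBP1 7, TRA2B 6 and HNRNPM 2. SRSF1 and the epithelial regulators ESRP1 and ESRP2 had 0. Of the marker genes, 7 of 8 mesenchymal ones had a peak (SNAI2 had none) and 0 of 8 epithelial ones did, CDH1 and EPCAM included, beside 23.6% of all protein-coding genes. The lists were chosen with earlier results of these data known. The 23.6% takes in genes of every length and transcript level, so whether the lists hold more genes with a peak than like genes was not tested.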

How the data were processed

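The labels credit the submitters' processing to cutadapt 1.3, TopHat2 2.0.10, SAMtools, MACS2 2.1.1.20160309 and bedtools, on hg19. Per its methods, the study removed duplicates by molecular barcode, pooled the immunoprecipitation libraries that shared antibody and input, and called peaks strand by strand against the size-matched input, with nearby summits split. The deposited list gives each peak a position, strand, summit and height, a signal in the authors' unit of pooled reads, not scaled to transcript level. Splitting summits raises the number of neighbouring peaks. Coverage tracks were not used here.

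Peaks were placed by centre on GENCODE release 44 (GRCh37), on their own strand, in the first fitting class of promoter (1000 nt before to 100 nt after a start), 5′UTR, 3′UTR, exon and intron, with mitochondrial peaks left out of shares. Counting was tested on simulated data. Python 3.11.15, pandas 2.3.3, numpy 2.4.6, scipy 1.17.1 and pysam 0.24.0 were used. Named in full were the 5 tallest QKI peaks, those with ACTAAC and those after the last shared exon, and other genes by the lists and the likeness given. The members, lists and intervals were chosen with earlier results of these data known, and the distance and transcript end thresholds after the peaks were seen. Alternatives were height cutoffs, merging of centres within 100 nt, class by summit or QKI-5 alone, and motif windows. The sequence of peak 5 is not reported here.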

Additional observations from a re-analysis of the deposited data

How the results depend on the processing

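Of 25 alternative values, 19 stayed within their limits and 6 moved. For counts the limit was a factor of 1.5. For shares of so few peaks the limits were wide, and 20.0% counted as unmoved from 6.67%. The tally therefore does not show that the shares are stable. Keeping only peaks at or above the median height left 6 QKI peaks (0.365 per 10 kb), 16.7% of them intronic, and 5 after the last shared exon; the upper quartile left 2. Merging peaks whose centres lay within 100 nt left 11 in all and 5 after the last shared exon. Counting only peaks past the ends of QKI-210 or QKI-204, chosen after seeing the data, gave 7 each. With introns placed before exons, or with QKI-5 alone, 53.3% were intronic, since the pair in the QKI-7 3′ end is then intronic. The share with ACTAAC ran from 6.67 to 16.7%, and with ACTAAT counted too it was 20.0%. Leaving out a library was not possible on a pooled list. No paired analysis was possible because the libraries were pooled before peaks were called and the columns carry no replicate.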
